A study of Homo sapiens with 18 samples.

Results

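The Arp2/3 complex is described here by the 9 genes that encode its subunits in human cells, which are 9 of the 13141 genes measured. ARPC4 was selected on these data because its signal was higher with both shRNAs, and the other 8 genes (ARPC1A, ARPC1B, ARPC2, ARPC3, ARPC5, ARPC5L, ACTR2 and ACTR3) were chosen by name as subunits of the same complex. All 9 had a row in the deposited table and no filter removed any. The question was whether the higher ARPC4 signal extended to the rest of the complex. For ARPC4 the comparisons of an shRNA with the control are given as a description without a test, since they chose it.

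The Arp2/3 complex starts new actin filaments on the sides of existing ones, and so builds the branched networks that push out lamellipodia and drive endocytosis. The actin-related proteins ACTR2 (Arp2) and ACTR3 (Arp3) act as the first subunits of the new filament. ARPC2 and ARPC4 form the core that holds the complex together and contacts the mother filament, ARPC1 (ARPC1A or ARPC1B) and ARPC3 sit beside it, and ARPC5 or its relative ARPC5L links them. The complex is idle until WASP-family proteins bind it, and it is a stoichiometric assembly in which each position is filled once.

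786-O is an established human clear cell renal carcinoma line that lacks functional VHL, the ubiquitin ligase component that targets hypoxia-inducible factors for destruction. The VHL-/- cells were left so, and the VHL+/+ cells carried VHL put back. Each background stably expressed a scramble shRNA (SCR), an shRNA against PBRM1, a subunit of a chromatin remodelling complex, or an shRNA against KDM5C, a histone H3 lysine 4 demethylase. The 6 groups therefore were VHL-/- SCR, VHL-/- PBRM1 shRNA, VHL-/- KDM5C shRNA, VHL+/+ SCR, VHL+/+ PBRM1 shRNA and VHL+/+ KDM5C shRNA, with no further treatment, and each group had 3 arrays (Illumina HumanHT-12 V4 BeadChips). Each target was addressed with 1 shRNA construct in 1 cell line, and whether the 3 arrays of a group came from separate cultures is not stated, so p-values measure the spread between these arrays, which may be technical.

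Values were log2 signals of a gene, averaged by the authors over its probes, and are compared only within a gene. All differences are on the log2 scale and come from 1 limma fit of all genes with the array chip as a covariate, with 2 arrays of each group on chip 1 and 1 on chip 2. A gene is called at an adjusted p under 0.05 over all 13141 genes. Arrays of a group correlated at 0.976 to 0.995 over all genes. PBRM1 itself was not called lower and its arrays overlapped SCR on the arrays labelled PBRM1 shRNA, where it read 7.16 to 7.38 in VHL-/- cells against 7.24 to 7.41 with SCR, and 7.02 to 7.51 in VHL+/+ cells against 7.22 to 7.46 with SCR (adjusted p = 0.864 and 0.639). KDM5C had no row, and VHL did not separate the backgrounds with SCR (0.08 ± 0.09 SE, adjusted p = 0.766), so these signals show neither knockdown nor the return of VHL, and PBRM1 shRNA and KDM5C shRNA below mean the arrays that carry those labels. The kidney epithelial markers PAX8, KRT8, KRT18 and EPAS1 were measured (PAX2 had no row), and of the markers of other cell types PTPRC and CD3E had no row while PECAM1, COL1A1 and ALB lay at percentiles 11.1, 17.8 and 30.5 of all genes by mean signal.

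ARPC4 was about 2-fold higher on the shRNA arrays in both backgrounds. In VHL-/- cells the 3 SCR arrays read 8.42, 8.37 and 8.28, the arrays labelled PBRM1 shRNA 9.50, 9.60 and 9.44, and the arrays labelled KDM5C shRNA 9.37, 9.42 and 9.36. In VHL+/+ cells they read 8.52, 8.66 and 8.39 with SCR, 9.53, 9.65 and 9.22 with PBRM1 shRNA, and 9.74, 9.62 and 9.50 with KDM5C shRNA. All 12 shRNA arrays were above all 6 SCR arrays, with a gap from 8.66 to 9.22 between them. RNA came from whole cultures, so more cells with the transcript and more transcript per cell cannot be told apart.

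**Figure D1:**
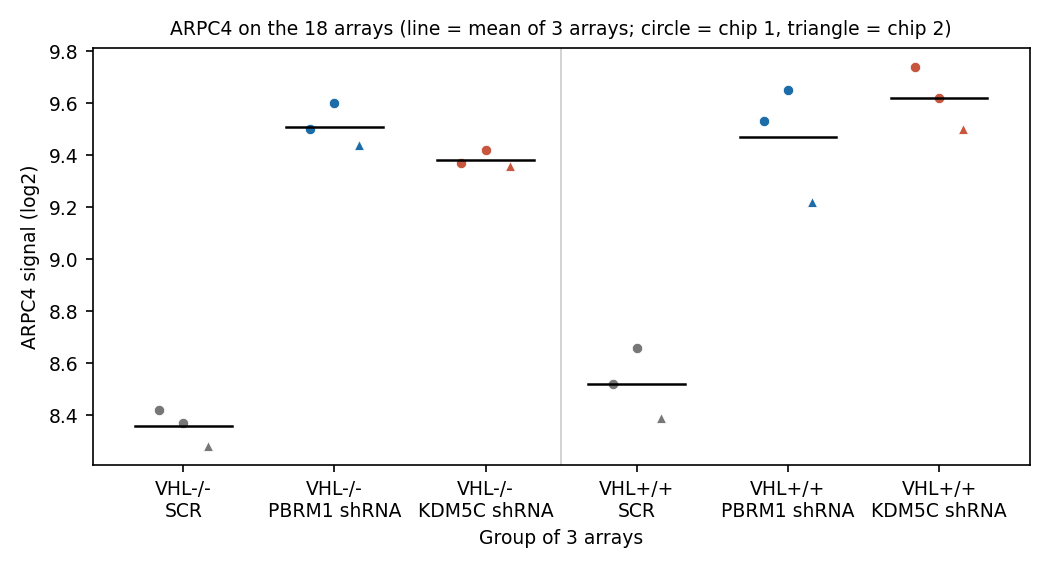
ARPC4 signal in log2 units (vertical axis) on each of the 18 arrays, by group; lines are the means of 3 arrays, circles are chip 1 and triangles chip 2. The 12 shRNA arrays sit between 9.22 and 9.74, all above the 6 SCR arrays, which sit between 8.28 and 8.66.

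The fitted ARPC4 difference from SCR was 1.16 ± 0.08 (SE; 2.23-fold, 95% interval 1.99 to 2.49) with PBRM1 shRNA in VHL-/- cells and 1.03 ± 0.08 (2.04-fold, 1.82 to 2.28) with KDM5C shRNA. In VHL+/+ cells it was 0.94 ± 0.08 (1.92-fold, 1.72 to 2.15) with PBRM1 shRNA and 1.10 ± 0.08 (2.14-fold, 1.91 to 2.39) with KDM5C shRNA. In each background both comparisons share the 3 SCR arrays. Among all genes ordered from the largest increase down, ARPC4 stood at place 11 and 16 in VHL-/- cells (PBRM1 and KDM5C shRNA) and at 19 and 11 in VHL+/+ cells. The ARPC4 signal was also lower on chip 2 than on chip 1 (-0.17 ± 0.05, adjusted p = 0.0137), as 23.8% of all genes differed between the chips. Within the chips the differences from SCR were 1.16, 1.00, 1.00 and 1.09 on chip 1 and 1.16, 1.08, 0.82 and 1.10 on chip 2 in the order above.

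The remaining comparisons showed no call for ARPC4. They reuse the arrays on which ARPC4 was chosen, and those between shRNA effects are differences of the rises that chose it. They are therefore no independent check. With SCR, ARPC4 was 0.17 ± 0.08 higher in VHL+/+ than in VHL-/- cells (adjusted p = 0.294), with PBRM1 shRNA the difference was -0.05 ± 0.08 (adjusted p = 0.878), and with KDM5C shRNA it was 0.24 ± 0.08 (adjusted p = 0.124). The KDM5C shRNA arrays of the backgrounds did not overlap, at 9.50 to 9.74 against 9.36 to 9.42, whereas the arrays of the backgrounds overlapped with SCR and with PBRM1 shRNA. The PBRM1 shRNA effect was 0.21 ± 0.11 larger in VHL-/- than in VHL+/+ cells and the KDM5C shRNA effect -0.07 ± 0.11, with adjusted p = 1 and 0.921. PBRM1 shRNA and KDM5C shRNA differed by 0.13 ± 0.08 in VHL-/- cells (95% interval -0.03 to 0.29) and by -0.15 ± 0.08 in VHL+/+ cells (-0.31 to 0.01), and neither was called (adjusted p = 0.91 and 0.995). Both of these, and both tests of the effect by background, called 0% of all genes, so the absence of a call says little about ARPC4. In VHL-/- cells the lowest PBRM1 shRNA array, 9.44, was just above the highest KDM5C shRNA array, 9.42. In the order of the group means, from 8.36 in VHL-/- SCR and 8.52 in VHL+/+ SCR to 9.38 in VHL-/- KDM5C shRNA, 9.47 in VHL+/+ PBRM1 shRNA, 9.51 in VHL-/- PBRM1 shRNA and 9.62 in VHL+/+ KDM5C shRNA, neighbouring groups overlapped except at the step between SCR and shRNA.

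The other 8 subunits did not follow ARPC4. By limma, 0 of 8 were called in each of the 4 comparisons with SCR, and at an unadjusted p under 0.05 there were 1, 1, 1 and 3 of 8 (PBRM1 and KDM5C shRNA in VHL-/- cells, then the same in VHL+/+ cells), beside 18.1%, 17.5%, 15.3% and 18.4% of all genes. These were ARPC5, lower in all 4, and in the last comparison also ACTR3, lower, and ARPC1B, higher. Over all genes, 2.79% were called higher and 2.65% lower with PBRM1 shRNA in VHL-/- cells, 2.4% and 2.37% with KDM5C shRNA in VHL-/- cells, 1.59% and 0.898% with PBRM1 shRNA in VHL+/+ cells, and 2.39% and 1.8% with KDM5C shRNA in VHL+/+ cells, rates at which 8 genes would hold less than 1 call. The median difference of the 8 was -0.05, -0.16, -0.06 and -0.07 in the order above, beside 0 over all genes in each. The highest upper 95% limit of any of them was 0.48 (ARPC1A, 1.39-fold), 0.33 (ACTR2, 1.26-fold), 0.36 (ARPC1A, 1.29-fold) and 0.50 (ARPC1B, 1.41-fold), while the lower limit of ARPC4 was 1.00, 0.87, 0.78 and 0.94. A rise of the size seen for ARPC4 lay outside the interval of every other subunit in all 4 comparisons.

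**Figure D2:**
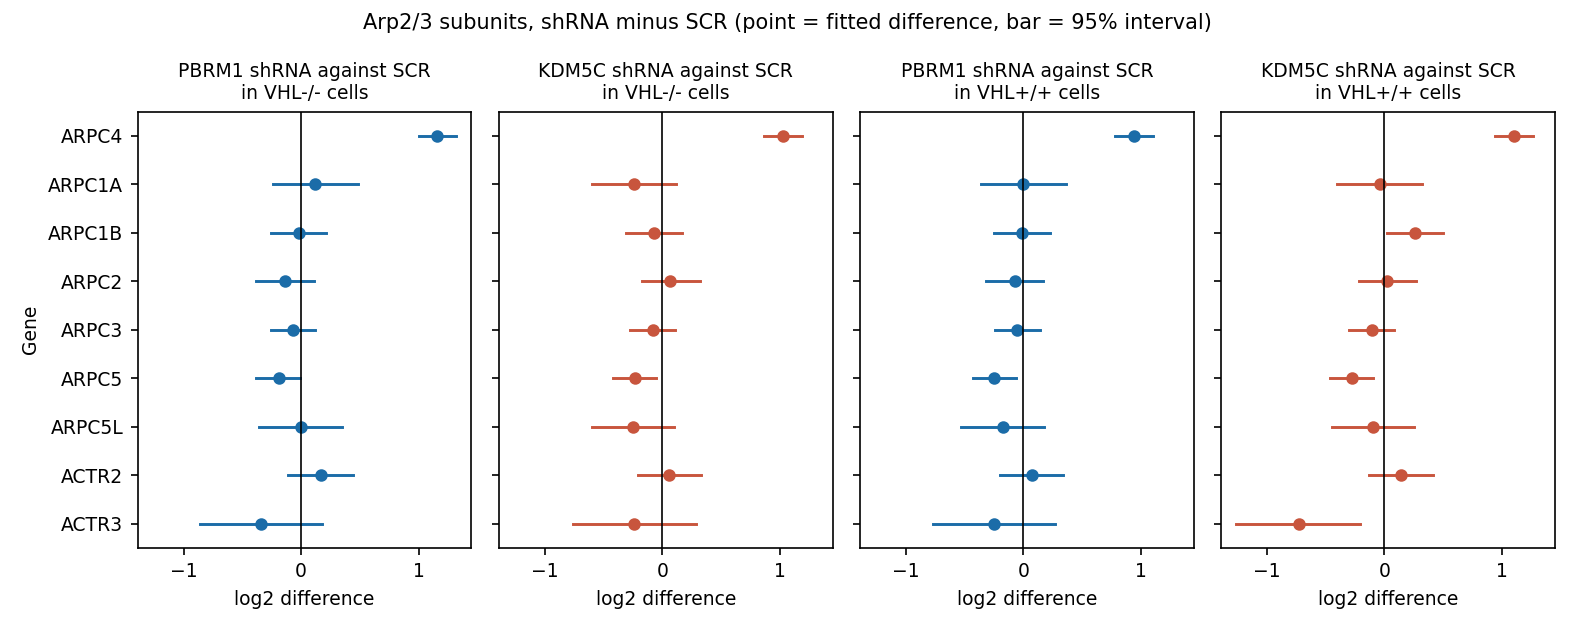
Fitted log2 difference from SCR (horizontal axis) of ARPC4 and the other 8 subunits in the 4 comparisons; points are the fitted values and bars the 95% intervals. ARPC4 lies between 0.94 and 1.16, and the bars of the other subunits end at or below 0.50.

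The core subunit ARPC2, the partner of ARPC4 in holding the complex together, read 10.97 to 11.20 in VHL-/- SCR, 10.76 to 11.20 with PBRM1 shRNA and 10.93 to 11.38 with KDM5C shRNA. In VHL+/+ cells it read 10.86 to 11.18, 10.86 to 11.01 and 10.94 to 11.14. Within each background these ranges overlapped, and the ARPC2 differences from SCR ran from -0.14 to 0.07. ARPC3, another structural subunit, differed from SCR by -0.11 to -0.05, with overlapping arrays in every comparison, and its signal was 0.24 ± 0.06 higher on chip 2 (adjusted p = 0.00463).

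The ARPC1 position can be filled by ARPC1A or by ARPC1B, which make complexes of different activity. ARPC1A arrays had a median of 11.56 and reached 11.85, and the differences from SCR of 0.12, -0.24, 0.00 and -0.04 each had an SE of 0.17. ARPC1B read 10.51, 10.54 and 10.56 in VHL+/+ SCR and 10.63, 10.81 and 10.94 with KDM5C shRNA, without overlap. That difference of 0.26 ± 0.11 was not called (adjusted p = 0.225), and the other 3 ARPC1B differences from SCR lay between -0.07 and -0.01. Between the backgrounds ARPC1B was 0.32 ± 0.11 higher in VHL+/+ than in VHL-/- cells with KDM5C shRNA (adjusted p = 0.174), and its arrays overlapped.

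Neither actin-like subunit was called in any comparison with SCR in the main fit. ACTR2 differed from SCR by 0.17, 0.06, 0.07 and 0.14, each with an SE of 0.13, and with KDM5C shRNA in VHL+/+ cells its arrays (11.76 to 11.91) were just above SCR (11.60 to 11.74). ACTR3 was the most variable subunit after ARPC4, with arrays from 9.57 to 10.94. In VHL+/+ cells ACTR3 read 10.71, 10.66 and 10.52 with SCR, 10.94, 10.17 and 10.03 with PBRM1 shRNA, and 9.57, 10.08 and 10.05 with KDM5C shRNA. The KDM5C shRNA arrays were all below SCR, with a difference of -0.73 ± 0.25 that was not called (adjusted p = 0.111), and with only those 6 arrays fitted it was called (-0.73, adjusted p = 0.0188). The other ACTR3 differences from SCR were -0.34, -0.24 and -0.25, all with an SE of 0.25.

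In the 4 comparisons 20.7%, 16.3%, 14.2% and 17.9% of all genes had arrays that did not overlap, against 1, 1, 1 and 3 of the 8 other subunits, shares that 8 genes would match with 1 or 2. In the first 3 comparisons the subunit was ARPC5, below SCR each time. In the last it was ACTR3 below SCR and ARPC1B and ACTR2 above it.

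**Figure D3:**
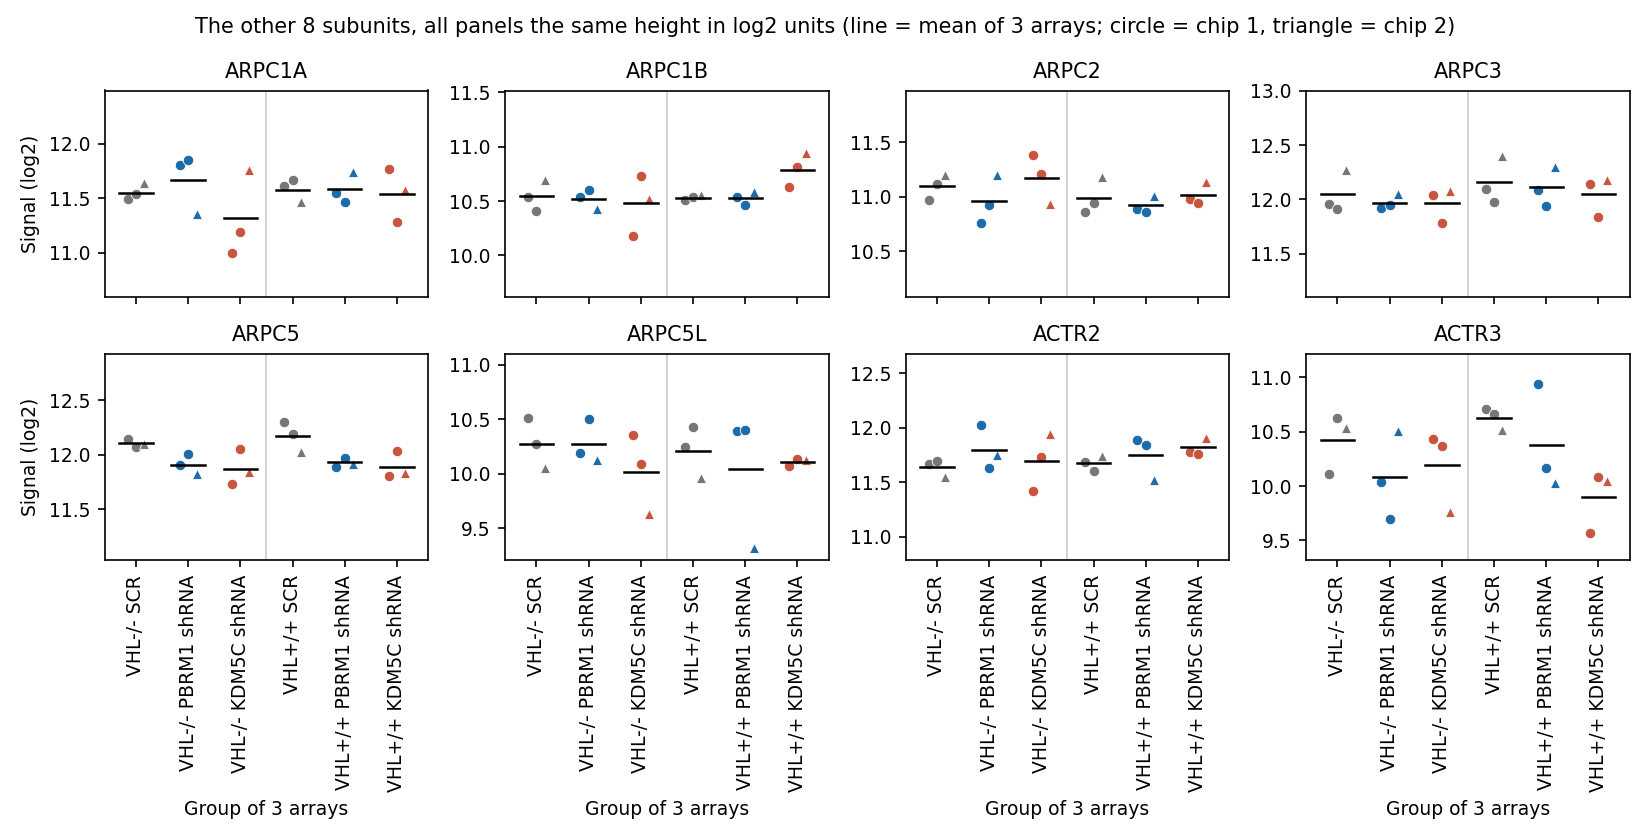
Signal in log2 units (vertical axis) of the 8 other subunits on each of the 18 arrays, by group, all panels spanning the same number of log2 units; lines are the means of 3 arrays, circles are chip 1 and triangles chip 2. For ARPC5, 10 of 12 shRNA arrays lie below all 6 SCR arrays, ACTR3 and ARPC5L scatter most, and no panel shows the step of ARPC4.

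ARPC5, which ties the ARPC1 position to the rest of the complex, was the subunit with the steadiest shift, and it was lower. In VHL-/- cells it read 12.15, 12.07 and 12.10 with SCR, 11.91, 12.01 and 11.82 with PBRM1 shRNA, and 11.73, 12.05 and 11.84 with KDM5C shRNA. In VHL+/+ cells it read 12.30, 12.19 and 12.03 with SCR, 11.89, 11.97 and 11.92 with PBRM1 shRNA, and 11.81, 12.04 and 11.83 with KDM5C shRNA. Of the 12 shRNA arrays 10 were below all 6 SCR arrays. The differences from SCR were -0.19, -0.23, -0.25 and -0.28, each with an SE of 0.09, and none was called on its own (adjusted p = 0.243, 0.15, 0.16 and 0.078). The average of the 4 comparisons, chosen after these values had been seen, was -0.24 ± 0.05 (0.847-fold, 95% interval 0.784 to 0.916, adjusted p = 0.00518 by limma). In that average, 7.78% of all genes were called higher and 7.57% lower, and the arrays of 1.66% of genes did not overlap. ARPC5 was the 1 of 8 other subunits called there, beside 2 of 8 and 27.2% of all genes at an unadjusted p under 0.05, the second being ACTR3 (-0.39 ± 0.15, adjusted p = 0.101). Leaving out replicate 1 of VHL+/+ PBRM1 shRNA or replicate 3 of VHL-/- PBRM1 shRNA brought the ACTR3 average to -0.46 and to a call (adjusted p = 0.0255 and 0.029). The ARPC4 difference in the same average was 1.06 ± 0.05 (2.08-fold, 1.94 to 2.22). Of the 4 measured kidney epithelial markers, EPAS1 (0.58 ± 0.13, adjusted p = 0.00574) and KRT8 (0.33 ± 0.08, adjusted p = 0.00743) were also called higher in that average, while PAX8 (-0.25 ± 0.10, adjusted p = 0.13) and KRT18 (0.01 ± 0.05, adjusted p = 0.905) were not called. The 3 measured markers of other cell types lay between -0.07 and 0.05 without a call. The part of these markers in the subunit differences was not tested.

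ARPC5L, the relative of ARPC5 that can take its place, ranged from 9.32 to 10.51 and differed between the chips by -0.43 ± 0.10 (adjusted p = 0.00593). Its average difference from SCR was -0.13 ± 0.10 (adjusted p = 0.463). The 2 lowest ARPC5L arrays, 9.32 in VHL+/+ PBRM1 shRNA and 9.63 in VHL-/- KDM5C shRNA, were both on chip 2. The relative of ACTR3, ACTR3B, differed from SCR by -0.02, -0.02, 0.03 and 0.08, each with an SE of 0.06, and ACTR3C had no row. The ACTR3B group means, 6.86 to 6.97, were low beside the array median of 7.65, so the lack of a difference says little.

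VHL status left the complex without a call in any of the 3 comparisons of VHL+/+ with VHL-/- cells. By limma, 0 of 9 subunits were called with SCR, PBRM1 shRNA or KDM5C shRNA, where 3.2%, 2.37% and 2.77% of all genes were called. Among the 8 other subunits the counts at an unadjusted p under 0.05 were 0, 0 and 1 (ARPC1B), beside 15.6%, 13.5% and 14.9% of all genes, and the medians were 0.03, -0.02 and 0.09 beside 0 over all genes. The tests of whether an shRNA effect differed between the backgrounds called 0% of all genes, with 553 genes for PBRM1 shRNA and 1014 for KDM5C shRNA at an unadjusted p under 0.05, none of them a subunit. PBRM1 shRNA against KDM5C shRNA likewise called 0% of all genes in either background, with 707 genes in VHL-/- cells and 545 in VHL+/+ cells at an unadjusted p under 0.05, the latter including 1 subunit, ARPC1B (-0.27 ± 0.11, adjusted p = 0.995).

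The proteins that switch Arp2/3 on and off, and those that build or dismantle actin filaments without it, were taken from lists by role, with 65 of 81 genes measured. In the comparisons with SCR, 1 of 65 was called higher and 3 lower (PBRM1 shRNA, VHL-/-), 1 higher and 4 lower (KDM5C shRNA, VHL-/-), and 0 higher and 4 lower with either shRNA in VHL+/+ cells, with 13, 13, 15 and 20 of 65 at an unadjusted p under 0.05. Over all genes the shares called lower were 2.65%, 2.37%, 0.898% and 1.8%, and those at an unadjusted p under 0.05 were 18.1%, 17.5%, 15.3% and 18.4%. The medians of the 65 were -0.02, -0.02, -0.07 and -0.07. Most of the calls came from the same 3 genes, ABI2, FMNL2 and FHOD3, each called lower in all 4 comparisons, where both comparisons of a background share SCR arrays.

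ABI2, a subunit of the WAVE complex that carries Rac signals to Arp2/3, read 8.08 to 8.21 with SCR in VHL-/- cells, 7.77 to 7.88 with PBRM1 shRNA and 7.71 to 7.83 with KDM5C shRNA. In VHL+/+ cells it read 8.12 to 8.29, 7.80 to 7.85 and 7.66 to 7.94. All 12 shRNA arrays lay below all 6 SCR arrays, and the differences were -0.31, -0.36, -0.38 and -0.38, each ± 0.08 (adjusted p = 0.0227, 0.0112, 0.012 and 0.0102). ABI2 was the 1 of 5 measured WAVE complex genes called. Leaving out certain single arrays ended the call in each comparison, up to an adjusted p of 0.122, 0.0671, 0.0736 and 0.063 in the same order, with the difference at -0.27 or lower. Those arrays were VHL-/- SCR replicates 1 and 2 and VHL-/- PBRM1 shRNA replicates 1 and 2 for the first comparison, VHL-/- SCR replicate 2 for the second, VHL+/+ SCR replicate 1 and VHL+/+ PBRM1 shRNA replicates 2 and 3 for the third, and VHL+/+ SCR replicate 1 for the fourth. With only the arrays of the compared groups fitted, the KDM5C shRNA calls were lost too.

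Formins assemble unbranched filaments and so work beside Arp2/3 rather than through it. FMNL2, a formin of lamellipodia and filopodia, read 8.61 to 8.98 in VHL-/- SCR, 8.25 to 8.39 with PBRM1 shRNA and 7.96 to 8.31 with KDM5C shRNA, and 8.89 to 9.16, 8.36 to 8.73 and 8.33 to 8.47 in VHL+/+ cells. Within each background the shRNA arrays were all below SCR, by -0.54, -0.69, -0.53 and -0.66, each ± 0.10 (adjusted p = 0.00386, 0.000682, 0.00759 and 0.00151). Without VHL+/+ PBRM1 shRNA replicate 2 the call in the third comparison was lost (adjusted p = 0.0555). FHOD3, a formin of stress fibres and sarcomeres, differed by -0.45, -0.32, -0.31 and -0.40, each ± 0.08 (adjusted p = 0.00263, 0.0253, 0.0462 and 0.0095). The FHOD3 call with PBRM1 shRNA in VHL+/+ cells was lost without any 1 of 13 of the 18 arrays (all but VHL-/- PBRM1 shRNA replicates 1, 2 and 3 and VHL-/- KDM5C shRNA replicates 1 and 3; adjusted p up to 0.227). The call with KDM5C shRNA in VHL-/- cells was lost without any SCR replicate or KDM5C shRNA replicate 2 or 3 of that background (up to 0.113). The call with KDM5C shRNA in VHL+/+ cells was lost without replicate 3 of SCR or of KDM5C shRNA (up to 0.0529). FMNL2 and FHOD3 were the 2 of 10 measured formins called.

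The remaining calls were of DSTN, CORO1B and ACTR10. DSTN (destrin), which severs and depolymerises filaments, differed by -0.39 ± 0.10 with PBRM1 shRNA and -0.39 ± 0.10 with KDM5C shRNA in VHL+/+ cells (adjusted p = 0.048 and 0.0364), and by -0.04 and 0.00 in VHL-/- cells. The first DSTN call was lost without any 1 of 14 arrays (all but VHL+/+ SCR replicate 2, VHL-/- PBRM1 shRNA replicate 3 and VHL-/- KDM5C shRNA replicates 2 and 3; adjusted p up to 0.22). The second was lost without VHL+/+ SCR replicate 1 or 3 or any VHL+/+ KDM5C shRNA replicate (up to 0.186). CORO1B, a coronin that removes Arp2/3 from branches, differed by -0.38 ± 0.09 with KDM5C shRNA in VHL-/- cells (adjusted p = 0.0204), which was lost without any 1 of 3 arrays (VHL-/- SCR replicate 1 or 3, or VHL-/- KDM5C shRNA replicate 3; adjusted p up to 0.0902). Without VHL+/+ SCR replicate 2 the other 3 CORO1B differences, -0.29, -0.34 and -0.33, were called too (adjusted p = 0.0366, 0.0489 and 0.0427). ACTR10, an actin-related protein of dynactin and not of Arp2/3, was 0.45 ± 0.09 and 0.59 ± 0.09 higher in VHL-/- cells (adjusted p = 0.00473 and 0.000639) and differed by 0.17 and 0.05 in VHL+/+ cells. With KDM5C shRNA the effect in VHL-/- cells minus that in VHL+/+ cells was 0.54 ± 0.12 for ACTR10 and 0.39 ± 0.14 for DSTN, without a call (adjusted p = 0.283 and 0.486). The activators (7 of 9 measured), WASH complex genes (6 of 6) and upstream genes (9 of 10) had 0 calls in the 4 comparisons, with 1, 0, 2 and 2 activators, 2, 3, 1 and 1 WASH complex genes and 1, 0, 1 and 2 upstream genes at an unadjusted p under 0.05, where 15.3% to 18.4% of all genes were.

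In the average of the 4 comparisons 1 of 65 was called higher (ACTR10) and 12 lower, against 7.78% and 7.57% of all genes, with a median of -0.03. At an unadjusted p under 0.05 there were 17 of 65, beside 27.2% of all genes. Beside ABI2, FMNL2, FHOD3, CORO1B and DSTN, the genes lower there were the Arp2/3 activator WASL (N-WASP, -0.26 ± 0.08, adjusted p = 0.0295), the WAVE complex subunit CYFIP1 (-0.25 ± 0.06, adjusted p = 0.00726), the WASH complex subunit WASHC2C (listed as FAM21C, -0.24 ± 0.05, adjusted p = 0.00201) and the adaptor NCK1 (-0.21 ± 0.07, adjusted p = 0.0447). CYRIA (listed as FAM49A), which restrains Rac signalling to the WAVE complex, differed by -0.49 ± 0.10 (adjusted p = 0.00341), the capping protein subunit CAPZB by -0.20 ± 0.05 (adjusted p = 0.0123) and the dynactin subunit ACTR1B by -0.18 ± 0.05 (adjusted p = 0.0214). The lower genes thus held activators and inhibitors of Arp2/3 alike. The DSTN average was lost without any 1 of 7 arrays (VHL+/+ SCR replicates 1 and 3, VHL+/+ PBRM1 shRNA replicate 3, VHL+/+ KDM5C shRNA replicate 2, VHL-/- SCR replicates 1 and 3 and VHL-/- PBRM1 shRNA replicate 1; adjusted p up to 0.111). For the 7 genes called in this average alone the single arrays were not left out in turn.

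**Figure D4:**
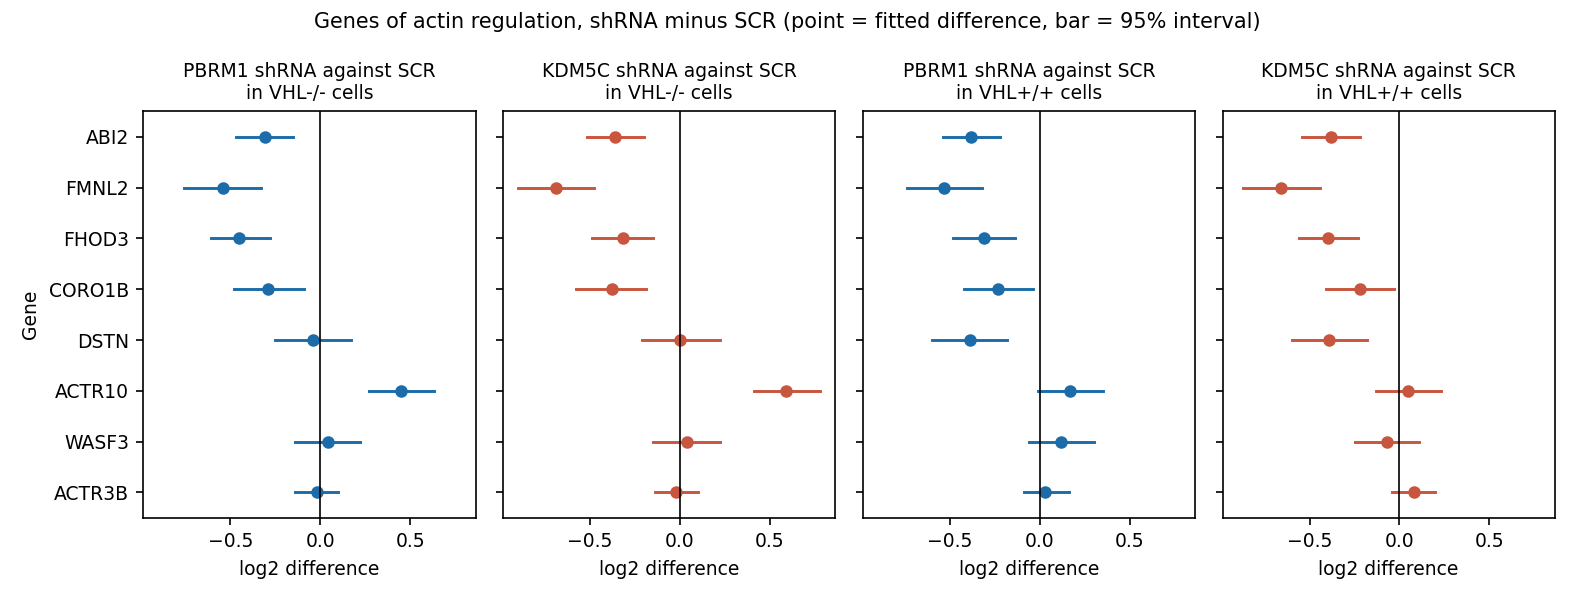
Fitted log2 difference from SCR (horizontal axis) of ABI2, FMNL2, FHOD3, CORO1B, DSTN, ACTR10, WASF3 and ACTR3B in the 4 comparisons; points are the fitted values and bars the 95% intervals. ABI2, FMNL2 and FHOD3 lie below 0 in all 4 panels, from -0.31 to -0.69, and ACTR10 lies above 0 in the VHL-/- panels.

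Of the 65 list genes, 2 were called in the VHL comparison with SCR and 1 each with PBRM1 shRNA and KDM5C shRNA, where 3.2%, 2.37% and 2.77% of all genes were called. The gene called in all 3 was WASF3 (WAVE3), 1 of the 7 measured activators, which switches Arp2/3 on at lamellipodia. It read 7.39 to 7.51, 7.37 to 7.53 and 7.30 to 7.57 in the VHL-/- groups (SCR, PBRM1 shRNA and KDM5C shRNA), and 6.63 to 6.90, 6.87 to 6.95 and 6.64 to 6.78 in the VHL+/+ groups. All 9 VHL+/+ arrays were below all 9 VHL-/- arrays, by -0.63, -0.55 and -0.74, each ± 0.09 (adjusted p = 0.000653, 0.00162 and 0.000131). WASF3 did not differ from SCR with either shRNA by more than 0.12. Its signal was low, below the array median of 7.65 on every array. In VHL+/+ cells it lay around the mean of COL1A1 (6.81, percentile 17.8), a marker of another cell type. The formin FHOD1 was 0.42 ± 0.08 higher in VHL+/+ than in VHL-/- cells with SCR (adjusted p = 0.00888), and differed by 0.17 with PBRM1 shRNA and 0.27 with KDM5C shRNA without a call (adjusted p = 0.371 and 0.092).

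ARPC4 lies on chromosome 3, and its start lies close to that of a gene on the other strand. In the RefSeq promoter table (GRCh38.p14) one of the starts of TADA3, which encodes an adaptor of histone acetyltransferase complexes and is read the other way, lies just upstream of the ARPC4 start, and another lies 493 bases downstream of it. The stretch between the ARPC4 start and the nearer TADA3 start is shown because it lies upstream of both these starts. For the other TADA3 start it lies downstream. The stretch is at chr3:9792474-9792517 on the plus strand, with each GGGCGG (the GC box) in capitals:
ARPC4-TADA3: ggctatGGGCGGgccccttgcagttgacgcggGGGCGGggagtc
Its 44 bases hold GGGCGG at 2 places and are 75% G or C. The motif was marked after reading the sequence, and 45% of the 35116 promoter windows of the table (300 bases, 250 before and 50 after a start, both strands searched) hold it, among them 10 of the 11 windows of the 8 subunits that have one. The ARPC4 window holds none of the other motifs searched, which were GAAANNGAA (the core of interferon response elements, in 8.11% of windows), ACGTG (21.4%) and GCGTG (36.5%) of hypoxia response elements, and the CArG box of serum response factor (1.29%). Of the subunits, ARPC3 held GAAANNGAA and ACGTG, and 5 held GCGTG.

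No gene measured around ARPC4 had a difference of its size. Of the 10 genes on each side in the RefSeq order, 9 were measured (MTMR14, BRPF1, OGG1, CAMK1, TADA3, TTLL3, RPUSD3, JAGN1 and IL17RC). By limma, 0 of 9 were called in any comparison with SCR, with 2 (TADA3 and IL17RC), 1 (MTMR14), 0 and 0 at an unadjusted p under 0.05, beside the 18.1%, 17.5%, 15.3% and 18.4% of all genes given above. The shares of all genes called higher were 2.79%, 2.4%, 1.59% and 2.39%. TADA3 read 7.64, 7.63 and 8.04 in VHL-/- SCR, 8.02, 8.12 and 8.10 with PBRM1 shRNA, and 7.64, 7.81 and 8.29 with KDM5C shRNA. SCR replicate 3, which is on chip 2, overlapped the shRNA arrays. The TADA3 differences from SCR were 0.31 ± 0.10 and 0.14 ± 0.10 in VHL-/- cells (adjusted p = 0.0909 and 0.525) and 0.12 and 0.15 in VHL+/+ cells (adjusted p = 0.658 and 0.457), with upper limits from 0.33 to 0.53. With PBRM1 shRNA in VHL-/- cells TADA3 was called without PBRM1 shRNA replicate 3 of that background (0.42, adjusted p = 0.0254) and on chip 1 alone (0.44, adjusted p = 0.0438). Its average over the 4 comparisons was 0.18 ± 0.06 (adjusted p = 0.0576), and became 0.21 with a call (adjusted p = 0.0481, 0.0192 and 0.025) when replicate 1 of VHL+/+ SCR, replicate 3 of VHL-/- PBRM1 shRNA or replicate 1 of VHL-/- KDM5C shRNA was left out. TTLL3, a tubulin glycylase gene on the strand of ARPC4 whose exons can be joined to those of ARPC4 in a read-through transcript, differed by -0.04, -0.01, 0.05 and -0.11, each ± 0.07. The TTLL3 group means, 6.72 to 6.89, were low beside the array median of 7.65, so the lack of a difference says little. Which probes gave the ARPC4 signal is not given in the sources used here, so ARPC4 and the read-through transcript cannot be told apart.

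**Figure D5:**
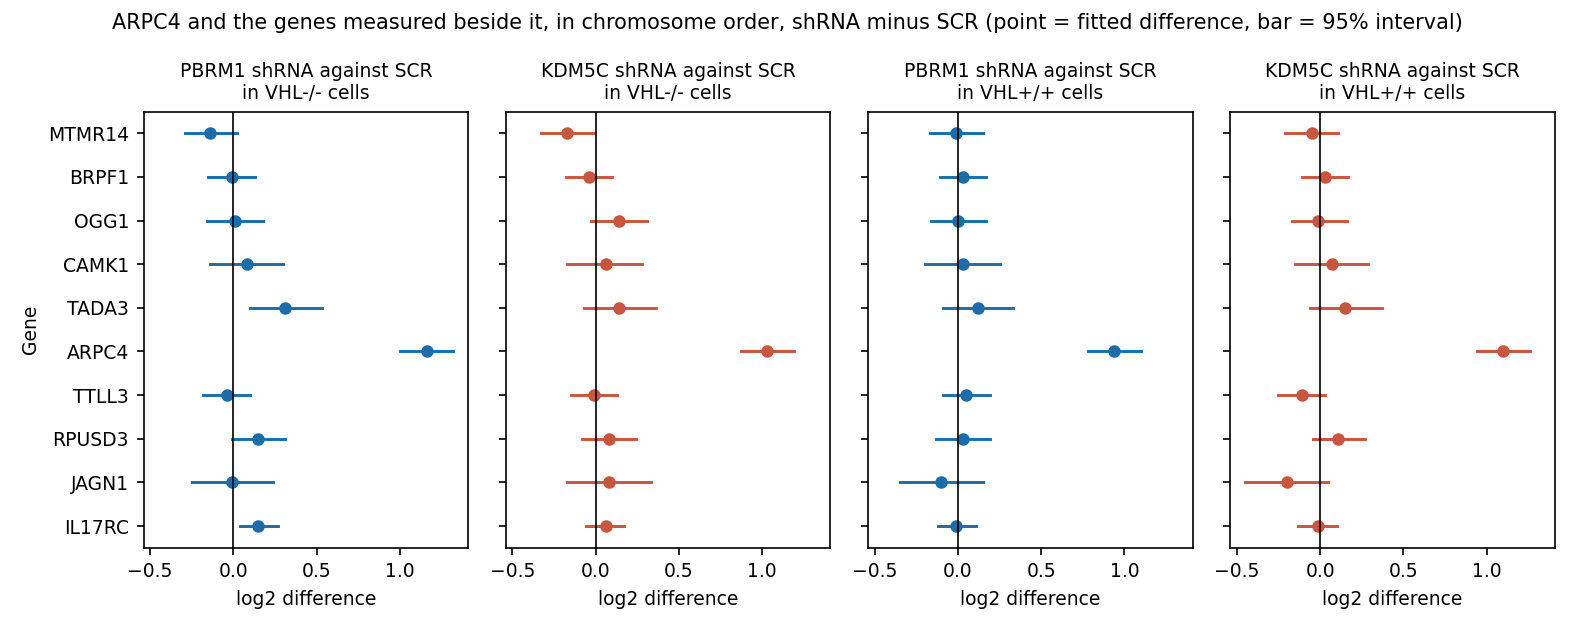
Fitted log2 difference from SCR (horizontal axis) of ARPC4 and the 9 measured genes beside it, listed in chromosome order, in the 4 comparisons; points are the fitted values and bars the 95% intervals. ARPC4 lies near 1 in every panel, and the bars of its neighbours end at or below 0.53.

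The genes whose pattern was most like ARPC4, by Pearson correlation over the 18 arrays with the chip difference removed, were IGSF3 (r = 0.979), AKR7A2 (0.972), AKR7A3 (0.97), TMEM109 (0.965) and GAS6 (0.963). These are an immunoglobulin superfamily membrane protein, a pair of aldo-keto reductases, a membrane protein of the endoplasmic reticulum and nucleus, and the ligand of the TAM receptor kinases. The 18 points share the step between 6 SCR and 12 shRNA arrays, so these values are a description without a test. By rank correlation over all genes, the same 5 genes stood at places 312.5, 513, 111, 28.5 and 672. Their average differences from SCR were 1.76, 1.75, 1.26, 1.12 and 1.18, all larger than the 1.06 of ARPC4, and all 12 shRNA arrays were above all 6 SCR arrays for each. AKR7A2 and AKR7A3 are close relatives, so how far their signals are separate is uncertain. Among the other subunits r with ARPC4 ran from 0.403 for ACTR2 through 0.196 for ARPC1B, -0.0183 for ARPC1A, -0.164 for ARPC2, -0.219 for ARPC5L and -0.293 for ARPC3 to -0.53 for ACTR3 and -0.77 for ARPC5.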

How the data were processed

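RNA of 18 samples was hybridised to Illumina HumanHT-12 V4 BeadChips, 3 samples for each of 6 groups taken from the labels. The authors processed the scanner output in GenomeStudio, then in limma with background correction forced to positive values, log2 transformation and quantile normalization, kept probes detected at 0.05, and took the mean over each gene's probes. The deposited values are log2 signals of 13141 genes, with an equal median of 7.65 on every array. A batch correction (ComBat) is described for heat maps, and since 3130 genes still differed between chips, chip was kept as a covariate. Quantile normalization sets equal distributions, so a shift of all genes would not be seen.

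All genes were fitted with limma 3.58.1 in R 4.3.3 (group plus chip, 11 residual degrees of freedom, eBayes), with Benjamini-Hochberg adjustment over all genes. The fit was tested on simulated data. The members and lists were chosen with earlier results of these data known. The text names all 9 subunits, up to 3 called genes per list and comparison with the largest change, the 10 RefSeq neighbours on each side that had a row, and the 5 genes with the highest r with ARPC4. Promoter windows came from RefSeq (GRCh38.p14). The number of arrays limits the precision, and with 3 against 3 an exact permutation test cannot go below 0.1, so none was run. Alternatives were no chip term, the replicate number in its place, only the groups compared, fold limits of 1.5 and 2, leaving out the 0.25 of genes with the lowest signal, median centring, cyclic loess, trend and robust moderation, chip 1 or 2 alone, and each array left out. The average over the 4 comparisons with SCR was added after the data were seen.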

Additional observations from a re-analysis of the deposited data

How the results depend on the processing

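All 135 ARPC4 differences from SCR under alternatives stayed within the spread between replicates. Many of the 135 could not move, because every group has the same chip split and array medians were equal. A difference of group means is kept without the chip term, with the replicate block, with other moderation, or after median centring. It is also kept with only the groups compared, without dim genes, or without an array of another group. With 1 array left out the ARPC4 differences ranged from 1.13 to 1.19 (PBRM1 shRNA) and 0.98 to 1.06 (KDM5C shRNA) in VHL-/- cells, from 0.87 to 1.02 and 1.06 to 1.14 in VHL+/+ cells, and from 1.04 to 1.08 for their average. The lowest value of any setting was 0.82, for PBRM1 shRNA in VHL+/+ cells on chip 2 alone. The counts of other subunits called were unchanged in 328 of 336 values, and no result reversed. Some of these were fixed beforehand: fold limits only filter the main fit and cannot change a count of 0, and centring equal medians repeats that fit. With KDM5C shRNA against SCR in VHL+/+ cells the count was 1 (ACTR3) instead of 0 when only those groups were fitted, and 0 to 1 with 1 array left out (ARPC5, adjusted p = 0.0474, without VHL-/- KDM5C shRNA replicate 1). For VHL+/+ against VHL-/- cells with KDM5C shRNA it was 0 to 1 with 1 array left out (ARPC1B without VHL-/- KDM5C shRNA replicate 2, ARPC2 without replicate 3). For the average of the 4 comparisons with SCR it was 0 instead of 1 at a fold of at least 1.5 and at a fold of at least 2, and 1 to 2 with 1 array left out, the second gene being ACTR3. ARPC5 was called in that average in all 26 alternative fits without a fold limit, with differences from -0.27 to -0.21 and adjusted p from 0.00232 to 0.0477. That average was chosen after the ARPC5 values had been seen and the fits reuse the same arrays, so they are no independent support. The cause of the changes in these counts was not tested.

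Of 2678 single subunit differences, 110 changed sign between values that were both uncalled. Of 3408 values of the named regulators and neighbours, 93 lost and 11 gained a call (TADA3 5, CORO1B 3, ACTR10 2, FHOD1 1). The CORO1B, DSTN and FHOD3 calls, other than FHOD3 with PBRM1 shRNA in VHL-/- cells and its average, were lost without the chip term and, the CORO1B average excepted, on chip 1 alone. On chip 1 alone, with 2 arrays per group, FMNL2 with PBRM1 shRNA in VHL-/- cells was at -0.45 (adjusted p = 0.074), FMNL2 and ABI2 with PBRM1 shRNA in VHL+/+ cells at -0.58 (0.0611) and -0.42 (0.0672), ABI2 with PBRM1 shRNA in VHL-/- cells at -0.36 (0.0544), FHOD1 at 0.41 (0.0835) and WASF3 with PBRM1 shRNA at -0.54 (0.0507). In 45 pairs of arrays with the same replicate number, deviations from group means correlated at -0.17 to 0.72, 37 of them over 0.1. With the chip difference removed they correlated at -0.58 to 0.28, 5 of them over 0.1. All replicate 3 arrays, and no others, were on chip 2, so removing the chip difference also removes what those arrays share. Whether arrays of the same number pair beyond the chip is therefore not settled by these values. With the replicate block in place of the chip, 0 of 8 other subunits were called in all 11 planned comparisons and 1 in the average, as without it. Of the named regulators, DSTN and FHOD3 lost their calls with PBRM1 shRNA in VHL+/+ cells under it, FHOD1 gained one with VHL+/+ against VHL-/- cells under KDM5C shRNA (0.27, adjusted p = 0.046), and no other call was lost.

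Probe identity, 1 shRNA construct per target and 3 arrays per group limit these values. The PBRM1 signal was not called lower on its shRNA arrays and KDM5C had no row, so in these data each direction rests on the labels. Only RNA was read here, and the authors also describe protein blots of 786-O cells with either target suppressed by shRNA.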
